A study of Mus musculus with 24 samples.

Results

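Regions of small blood vessels in the retina (retMECs) were set against regions of small blood vessels in the kidney (renMECs), both from non-diabetic mice. The 6 regions, 3 labelled as retinal and 3 as renal microvascular endothelial cells without diabetes, were taken by their sample labels from the 24 regions of the series. The series used the GeoMx Digital Spatial Profiler, in which barcoded probes bind the RNA of a section and the barcodes of a chosen area are cut off by light and sequenced, on formalin-fixed, paraffin-embedded tissue. All the mice were male C57BL/6J. The non-diabetic groups, retMEC and renMEC alike, had received mock injections of citrate buffer over 5 days from 8 weeks of age, and their tissue was collected 2 months later. The diabetic groups, used here only as further regions of the same organs, had received streptozotocin at 50 mg/kg on the same schedule. MEC regions were chosen by staining for CD31, a surface protein of endothelial cells, and neuronal regions of the retina by NeuN, a protein of neuronal nuclei. The study had 3 mice per condition, and because the labels do not tie regions to mice, the retMEC and renMEC regions may share animals. The p-values therefore measure the spread between regions only.

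Capillaries differ between organs in how tightly they are sealed. Those of the inner retina have a continuous wall closed by tight junctions and wrapped by pericytes and glial end-feet, which together form the inner blood-retinal barrier. Kidney glomerular and peritubular capillaries are fenestrated, which allows filtration in the glomerulus and exchange with the tubules. The comparison asks how far the basal transcriptomes of these vessel beds stand apart before diabetes. A region of either organ can also hold RNA of the cells that surround its vessels, and in summed counts of a region fewer cells of a type and less RNA per cell cannot be told apart. The sources used here do not pair the probe IDs with genes, so the check of each region against endothelial, neuronal or tubular marker genes was not made, and probes are described by their place in a ranking.

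The depth of the regions differed between the organs. Total counts were 342522, 85657 and 71038 in retMEC regions 1, 2 and 3, against 568886, 263315 and 1451915 in renMEC regions 1, 2 and 3. All retMEC regions lay on plate 1 and all renMEC regions on plate 2, so plate and organ cannot be told apart in any difference between them, in ranks and shared probes as well as in scaled counts. The share of reads that aligned to a probe barcode was 61.0%, 43.4% and 45.9% in retMECs, against 96.6%, 96.5% and 96.4% in renMECs. Of the 20186 probes with a count in any region, 16275 were counted in each of the 6 regions. The median probe had 16, 3 and 2 counts in retMECs, against 12, 6 and 31 counts in renMECs, so many retMEC values rest on a few counts. Another 11 probes had no count in any of the 6 regions of plate 1, although 8 of them were counted in all 18 regions of plate 2. In retMEC region 1, whose median probe had 16 counts, these 11 were the only probes at 0. They held 5.32%, 4.20% and 6.22% of the counts of the renMEC regions. No retMEC level is given for them, because organ and plate cannot be told apart. In the opposite direction, 1 probe had no count in the 18 regions of plate 2.

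Counts were spread more evenly over the probes in retMECs than in renMECs. The 10 highest probes of each region held 0.857%, 4.36% and 7.31% of its counts in retMECs, against 16.0%, 14.1% and 17.4% in renMECs. The 100 highest probes held 2.32%, 9.86% and 14.7% in retMECs, against 25.0%, 23.7% and 27.0% in renMECs. The ranges did not overlap on either measure. With 3 regions against 3, an exact two-sided permutation test cannot give a p below 0.10. Within retMECs, region 1 stood apart with a nearly flat profile. Only 3 of its probes exceeded 10 times its median probe, against 121 and 237 probes in retMEC regions 2 and 3, and 486, 425 and 462 probes in renMECs. The numbers of called probes, of shared probes and of ranks apart are also given without it. The named probes, the abundance bands and the lists drawn from the calls include it.

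**Figure D1:**
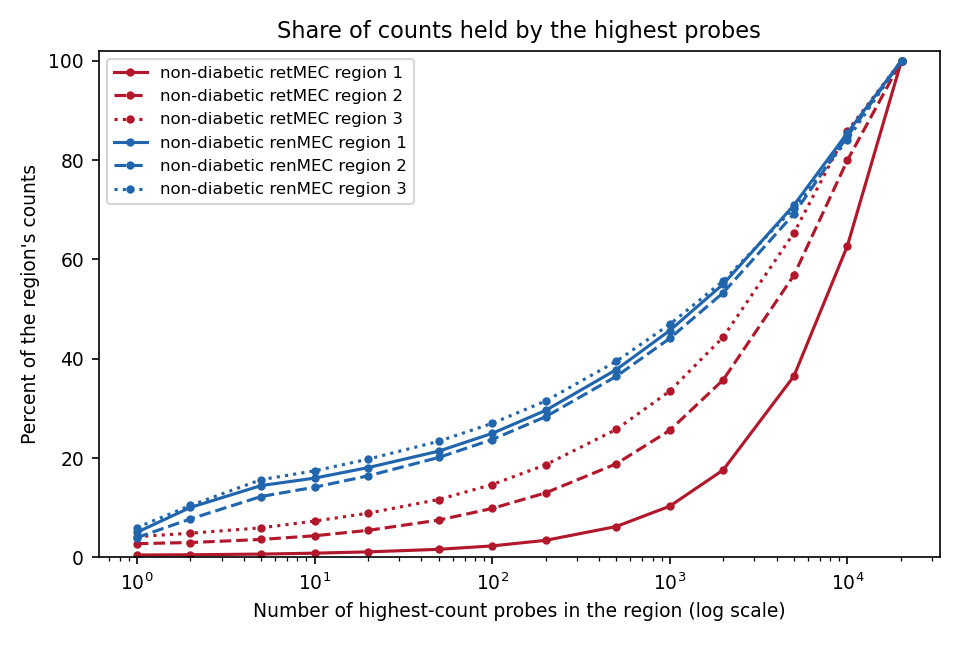
Cumulative percent of a region's counts (y axis) held by its highest probes (x axis, number of probes, log scale) in the 3 non-diabetic retMEC and 3 non-diabetic renMEC regions, 1 line per region. The 100 highest probes held between 2.32% and 14.7% in retMECs and between 23.7% and 27.0% in renMECs, and retMEC region 1 ran lowest.

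Despite the flat profile of region 1, the probes at the top of the order were largely shared among retMEC regions and differed from those of renMECs. Probes were ranked by count within each region, with rank 1 for the highest count, since a rank does not use a scaling factor between regions. Among the 100 highest probes of each region, retMEC pairs shared 69, 69 and 78 probes, and the pair without region 1 shared 78. The renMEC pairs shared 78, 82 and 85 probes. Each of the 9 pairs of 1 retMEC with 1 renMEC region shared only 24 to 35 probes, with a median of 31. These pairs reuse the same 6 regions and carry no test, and each pair within an organ shared a plate while each pair between the organs did not. Across all probes Spearman's rho was 0.26 to 0.41 between retMEC regions, 0.70 to 0.82 between renMEC regions and 0.25 to 0.48 between the organs, so over the whole order the range between retMEC regions lay within that between the organs. In the top 100 of every retMEC region stood 62 probes, and in that of every renMEC region 72 probes. Both lists held 19 of them, which is 30.6% of the retMEC list and 26.4% of the renMEC list.

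Several leading transcripts were common to both organs. When probes were ordered by their mean percent of counts in retMECs, the first was rank 1 in each retMEC region and rank 3, 2 and 3 in renMEC regions. It held 0.485%, 2.77% and 4.18% of counts in retMECs, against 3.57%, 3.77% and 3.81% in renMECs. The same probe was rank 1 in all 6 neuronal regions. Its scaled level did not differ beyond the spread between regions (log2 difference -1.14 ± 0.86 SE, adjusted p = 0.39). The third probe of the retMEC order held 0.0526%, 0.228% and 0.397% of counts in retMECs, at ranks 2, 2 and 3, against 0.319%, 0.415% and 0.403% in renMECs, at ranks 7, 6 and 6. Its log2 difference was -1.31 ± 0.74 (SE, adjusted p = 0.23). Both probes stood nearer the top in retMECs, while neither passed the test on scaled counts. The probe at rank 1 in each renMEC region was 1 of the 11 without a count on plate 1. In renMEC region 2 it was the only probe above the first probe of the retMEC order. Without it, the ranks of that first probe would not lie apart. The second position of the retMEC order came from a single region. There the probe had 493 counts (0.694% of the counts of retMEC region 3, 95% Wilson interval 0.636% to 0.758%, covering counting error only), against 13 and 2 counts in retMEC regions 1 and 2 and 7, 6 and 15 counts in renMECs.

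Other transcripts near the top in retMECs lay deep in the renMEC order. RTS0074851, which had the largest called increase, had 87, 140 and 73 counts in retMECs, against 6, 2 and 27 counts in renMECs. After 75th percentile scaling these were 83.4, 537 and 350 in retMECs, against 5.23, 3.48 and 9.76 in renMECs. Its rank was 17, 7 and 27 in retMECs, against 17891, 18832.5 and 12435 in renMECs. The log2 difference was 5.50 ± 0.71 (SE, edgeR adjusted p = 2.39e-05). This probe was chosen among called probes whose scaled counts and ranks did not overlap, so the gap on each scale follows from the choice. It ranked 47.5, 25 and 329 in diabetic retMECs, against 17838, 19809 and 19814 in diabetic renMECs. In non-diabetic neuronal regions it ranked 813.5, 1703.5 and 1396.5, and in carMECs, the microvessel regions of the heart, 4936.5, 1247 and 1546. Those ranks all lay between the retMEC and the renMEC ranks.

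The other probe given by ID that was higher, RTS0075409, had 45, 70 and 53 counts in retMECs, against 11, 3 and 19 counts in renMECs. Scaled, these were 43.1, 268 and 254 in retMECs, against 9.58, 5.23 and 6.87 in renMECs. Its ranks were 85, 23 and 50.5 in retMECs, against 11618, 17272.5 and 17688.5 in renMECs, and it was chosen by the same rule. The log2 difference was 4.59 ± 0.60 (SE, adjusted p = 2.65e-05). In diabetic regions the difference was 2.32 ± 0.43 (SE, adjusted p = 0.000423), with ranks of 281, 302.5 and 1550.5 in diabetic retMECs, against 14813.5, 5005.5 and 7868 in diabetic renMECs. Most neuronal regions placed it between rank 2189.5 and rank 5083, with rank 18892 in diabetic neuronal region 3.

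A further retMEC probe, the ninth of the retMEC order, stood out in the neuronal regions. It ranked 33, 16 and 6 in retMECs, with 59, 92 and 204 counts, against ranks of 12822, 18832.5 and 6202.5 in renMECs, with 10, 2 and 45 counts. Its log2 difference between retMECs and renMECs was 5.40 ± 0.83 (SE, adjusted p = 8.24e-05). It was rank 2 in all 6 neuronal regions, where it held 3.19%, 2.59% and 3.37% of counts in non-diabetic mice, far above the 0.0172%, 0.107% and 0.287% in retMECs. Of the named RTS0074851 the opposite held, since its share was 0.0254%, 0.163% and 0.103% in retMECs, against 0.0121%, 0.00799% and 0.00859% in non-diabetic neuronal regions. The part of RNA from retinal neurons in the retMEC values was not tested.

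Of the transcripts that led the renMECs, several were near the level of the median probe in retMECs. The second probe of the renMEC order held 0.00817%, 0.00467% and 0.00422% of counts in retMECs (28, 4 and 3 counts), against 5.01%, 2.94% and 4.45% in renMECs. Its log2 difference was -9.97 ± 1.18 (SE, adjusted p = 2.1e-05), the lowest among probes counted on both plates. It varied in diabetic renMECs, with 1.58%, 0.102% and 1.18% of counts. The fourth probe held 0.00671%, 0.00467% and 0.00704% in retMECs, against 0.484%, 1.13% and 0.83% in renMECs (log2 difference -7.59 ± 0.96 SE, adjusted p = 2.39e-05). The tenth held 0.00409%, 0.00584% and 0.00282% in retMECs, against 0.25%, 0.296% and 0.306% in renMECs (log2 difference -6.63 ± 0.85 SE, adjusted p = 2.39e-05). None of these 3 probes held over 0.0133% of counts in any carMEC or neuronal region of non-diabetic mice. A renMEC leader of another kind, the seventh probe, stayed near the top in retMECs, at ranks 11, 13 and 18, against 5, 7 and 9 in renMECs. It held 0.0295%, 0.117% and 0.127% of counts in retMECs, against 0.349%, 0.406% and 0.341% in renMECs (log2 difference -2.58 ± 0.73 SE, adjusted p = 0.0144).

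The first probe of the renMEC order, RTS0067474, and another abundant probe, RTS0080786, were among the 11 without a count on plate 1. RTS0067474 had 28766, 10491 and 87228 counts in renMECs and was rank 1 in each renMEC and each non-diabetic carMEC region and rank 3 in each non-diabetic neuronal region. RTS0080786 had 1316, 485 and 2715 counts in renMECs, at ranks 13, 21 and 19. Both were at 0 counts in the 3 non-diabetic and the 3 diabetic retMEC regions, and no fold change is given. Within plate 2, both were lower in diabetic neuronal regions than in diabetic renMECs, with log2 differences of -1.15 ± 0.25 (SE, adjusted p = 0.000566) for RTS0067474 and -1.32 ± 0.25 (SE, adjusted p = 0.00012) for RTS0080786.

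**Figure D2:**
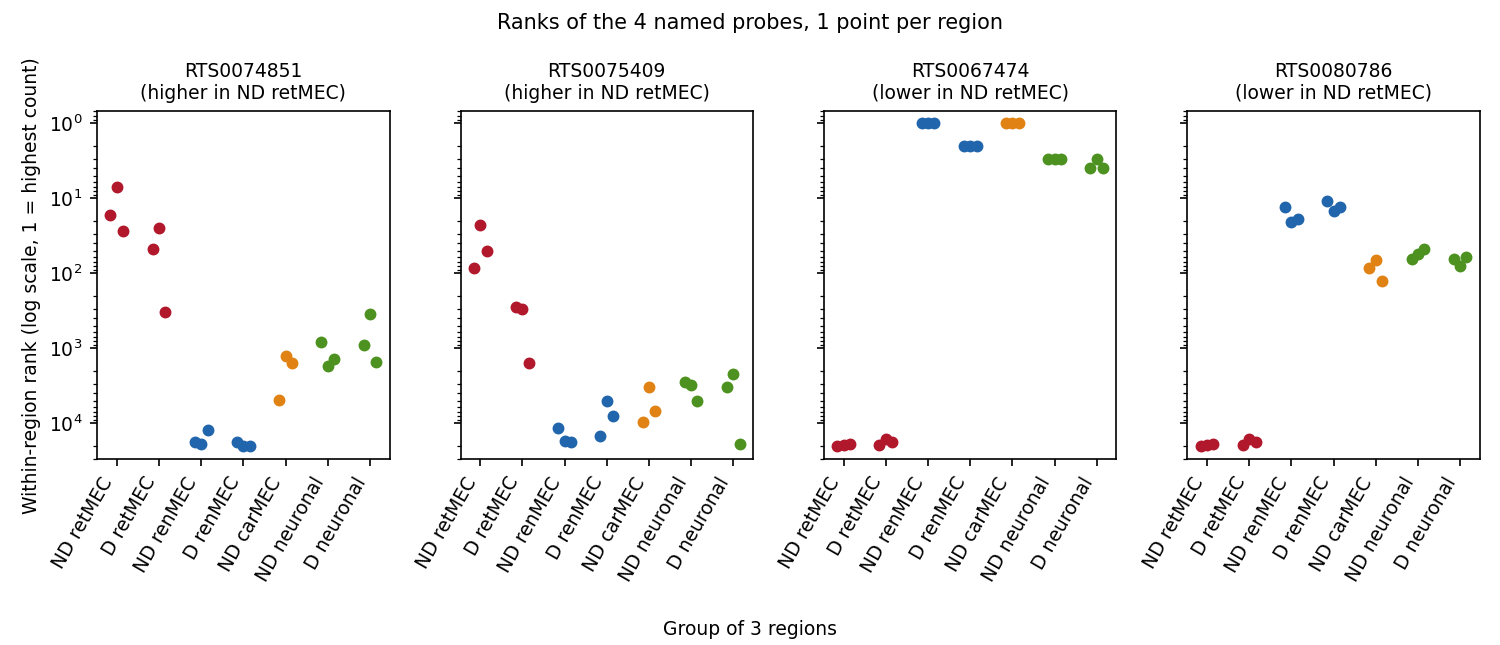
Within-region rank (y axis, log scale, 1 = highest count) of the 4 probes given by ID, in 7 groups of 3 regions (x axis, ND non-diabetic, D diabetic), 1 point per region. RTS0074851 and RTS0075409 ranked 7 to 85 in ND retMECs and 11618 to 18832.5 in ND renMECs, while RTS0067474 and RTS0080786 had no count in any retMEC region.

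Over all probes, more scaled counts were lower in retMECs than higher at the 75th percentile scaling named in the study's methods, but the balance depended on the scaling. Of 10201 probes tested with edgeR, 432 were higher in retMECs (4.23% of those tested) and 1427 were lower (14.0%), at a Benjamini-Hochberg adjusted p under 0.05. The median log2 difference of retMECs minus renMECs was 1.38 for the higher probes and -1.66 for the lower probes, and -0.16 over all probes tested. Differences over 4-fold were found in 54 of the higher and 491 of the lower probes. Of the lower probes, 5 were among the 11 without counts on plate 1. The ranks did not overlap between the organs for 384 of the 432 and 1264 of the 1427, against 10.5% and 12.5% of all 20186 probes. The calls were made on the same 6 regions, so these counts of ranks apart are a description. The counts behind the higher probes were small, with a median of 22, 7 and 5 counts in retMECs, against 10, 5 and 25 counts in renMECs, and 70 of the 432 had at least 10 counts in every retMEC region. The lower probes had a median of 16, 4 and 3 counts in retMECs, against 62, 29 and 158 counts in renMECs, and 1408 of the 1427 had at least 10 counts in every renMEC region. Without retMEC region 1, 324 probes were higher and 1132 lower of 7205 tested. Of these, 196 and 1007 were shared with the calls from all 6 regions. Without retMEC region 3, 894 were higher and 1518 lower of 17477 tested. Without renMEC region 3, 280 were higher and 961 lower of 7950 tested. Called in either direction were 20.2%, 13.8% and 15.6% of those tested, in this order, against 18.2% with all 6 regions. The number tested differed, so these counts are not on the same footing as the 432 and 1427.

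When counts were scaled by their total instead, 2295 probes were higher and 694 lower, and the median over all probes moved to 0.42. TMM factors, which trim extreme ratios, gave 276 higher and 1544 lower with a median of -0.30, and the 90th percentile gave 877 higher and 973 lower with a median of 0.11. A rescaling moves all probes by a similar amount. The number of probes tested differed as well, at 10201 for the 75th percentile, 9411 for total counts, 10187 for TMM and 7826 for the 90th percentile. Of the calls, 76.8%, 23.2%, 84.8% and 52.6% were lower, in this order. A set of 188 higher and 612 lower probes was called under all 4 scalings and by DESeq2. The ranks of 185 and 604 of these did not overlap, and their median log2 differences at the 75th percentile were 1.71 and -2.38. Both are a description, since the set was called on the same regions.

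**Figure D3:**
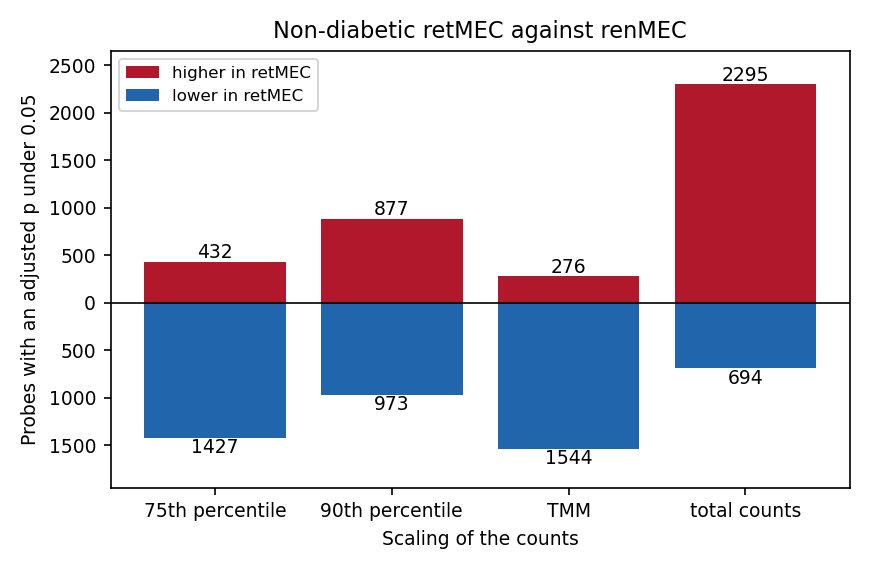
Number of probes (y axis) with an edgeR adjusted p under 0.05 that were higher (upward bars) or lower (downward bars) in non-diabetic retMECs than in renMECs, for 4 scalings of the counts (x axis). The larger bar was the lower one at the 75th percentile (432 and 1427), with TMM (276 and 1544) and narrowly at the 90th percentile (877 and 973), and the higher one with total counts (2295 and 694). The number of probes tested was 10201, 10187, 7826 and 9411, in this order.

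Calls were most frequent among abundant transcripts, and there most of them were lower in retMECs. Probes were ordered by the mean of the percent of counts in both organs. Among the first 100, 4 were called higher and 47 lower of 99 tested. From position 101 to 500, 10 were higher and 196 lower of 399, and from 501 to 1000, 13 were higher and 237 lower of 498. Further down the direction evened out, and from position 5001 to 10000, 202 probes were higher and 151 lower of 4195 tested. A probe that is high in 1 organ alone enters the top of this order through that organ, so the larger number of calls there is a description and no finding on abundant transcripts.

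Ranks of the 500 abundant probes gave a more even picture than their scaled counts. All 3 retMEC ranks lay above all renMEC ranks for 113 of them and below for 219, against 10.5% and 12.5% of all 20186 probes, or 23.0% in both directions. The 500 were chosen on these same regions, and a probe high in 1 organ alone enters through that organ. The larger share among them is therefore a description. Of the 219, 218 were also called lower. Of the 113, however, only 14 were called higher, and 80 had a log2 difference below 0 at the 75th percentile, as did 46 with total counts. None of the 113 was called lower under any of the 4 scalings or by DESeq2. The retMEC profiles were the flatter ones, and the part of this in the ranks was not tested. Without retMEC region 1, with the 500 chosen again, the ranks lay above for 190 and below for 198. With fewer regions ranks lie apart more easily, so these numbers are not on the same footing as the 113 and 219.

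**Figure D4:**
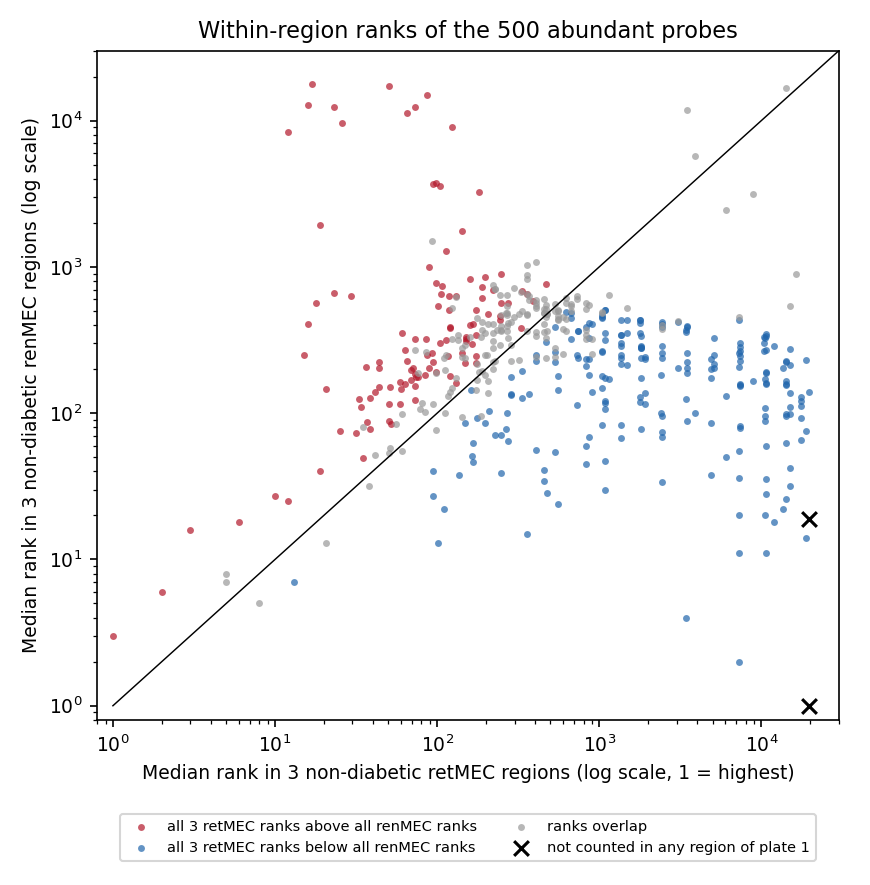
Median within-region rank of the 500 abundant probes in the 3 non-diabetic retMEC regions (x axis) and the 3 non-diabetic renMEC regions (y axis), both on log scales with 1 for the highest count, 1 point per probe, with the line of equal rank. Red points (113) rank nearer the top in every retMEC region, blue points and crosses (219) in every renMEC region, and the 2 crosses mark probes without a count on plate 1.

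The 14 abundant probes called higher stood at the top of the retMEC order and in the middle of the renMEC order. Their median rank was 73, 24.5 and 27.5 in retMECs, against 10623, 10007 and 8891.5 in renMECs. Together they held 0.229%, 1.1% and 1.61% of counts in retMECs, against 0.0568%, 0.0467% and 0.0518% in renMECs. For the 216 abundant probes called lower with ranks apart and with counts on plate 1, the median rank was 3913.5, 1790.5 and 1797.5 in retMECs, against 185.5, 178 and 158 in renMECs. They held 1.35%, 2.47% and 2.71% of counts in retMECs, against 17.4%, 16.8% and 18.2% in renMECs. Neither list overlapped between the organs in its share of counts, which follows from how the probes were chosen.

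Lists set on the diabetic regions allowed the same view with probes chosen on other regions. The 100 highest probes of diabetic retMECs and the 100 highest of diabetic renMECs had 43 in common, which left 57 in each. Of the 57 of the diabetic retMEC list, the median rank was 79, 86.5 and 89.5 in non-diabetic retMECs, against 325, 407 and 446.5 in non-diabetic renMECs. They held 0.756%, 2.65% and 3.37% of counts in non-diabetic retMECs, against 1.49%, 1.34% and 1.24% in non-diabetic renMECs. The share of counts was therefore higher in retMEC regions 2 and 3 than in any renMEC region, and lower in retMEC region 1. Of the 49 tested, 10 were called higher and 2 lower, against 4.23% and 14.0% of all probes tested, and their median log2 difference was -0.20, against -0.16 over all. The typical member was thus not higher on scaled counts. The ranks of 38 of the 57 lay above, against 10.5% of all probes and 34 of the first 100 probes of the abundance order. The 57 probes of the diabetic renMEC list included 2 without counts on plate 1. The other 55 had a median rank of 1493, 470.5 and 368 in non-diabetic retMECs, against 60.5, 60 and 60 in non-diabetic renMECs. They held 0.437%, 1.05% and 1.31% of counts in non-diabetic retMECs, against 10.4%, 9.14% and 10.5% in non-diabetic renMECs. Of these 55, 47 were called lower, against 14.0% of all probes tested, and their median log2 difference was -3.05, against -0.16 over all. The 2 organs of the diabetic regions lay on the same plates as those of the non-diabetic regions.

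The direction of the calls was compared with 2 further tests on diabetic regions, none of which entered the non-diabetic comparison. Between diabetic retMECs and diabetic renMECs, which lay on plates 1 and 2 like the non-diabetic groups, 118 probes were higher (4.28% of 2756 tested) and 444 lower (16.1%). Of the 432 probes higher in non-diabetic retMECs, 37 were called higher there, which is 8.56% of the first list and 31.4% of the calls in the second. Only 45 of the 432 passed the filter on low counts in the diabetic regions. A probe of low count can pass through the group in which it is high, so the 37 of 45 carry no weight as a share. Of the 1427 lower probes, 930 were tested and 377 called lower, which is 26.4% of the first list and 84.9% of the second, and 6 were called higher. The list supplied 930 of the 2756 probes tested. Its probes can pass the filter through the renMECs in the same way, so the 377 of 930 carry no weight as a share. Without retMEC region 1 in the non-diabetic comparison, 56 of 324 probes were called higher in both and 367 of 1132 lower.

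Neuronal regions of the retina and renMECs lay on the same plate. Between diabetic neuronal regions and diabetic renMECs, 768 probes were higher (20.0% of 3845 tested) and 916 lower (23.8%). Of the 432 probes higher in non-diabetic retMECs, 110 were called higher, which is 25.5% of the first list and 14.3% of the calls in the second, and 1 was called lower. The filter on low counts left 124 of the 432. Of the 1427 lower probes, 1038 were tested and 548 called lower, which is 38.4% of the first list and 59.8% of the second, and 28 were called higher. The list supplied 1038 of the 3845 probes tested. These too can pass the filter through the renMECs, so the 548 of 1038 carry no weight as a share. Without retMEC region 1 in the non-diabetic comparison, 132 of 324 probes were called higher in both and 498 of 1132 lower. This comparison has retinal neurons in place of microvessels, and it shares the diabetic renMEC regions with the comparison of diabetic retMECs. Of the 896 lower probes tested in both, 318 were called lower in both, 59 with retMECs alone, 190 with neuronal regions alone and 329 in neither. Of the 27 higher probes tested in both, 15 were called higher in both, 4 with retMECs alone, 6 with neuronal regions alone and 2 in neither. The filters on low counts left only these 27 of the 432. A probe can pass through the group in which it is high, so neither the split of the lower nor that of the higher probes carries weight as a share.

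**Figure D5:**
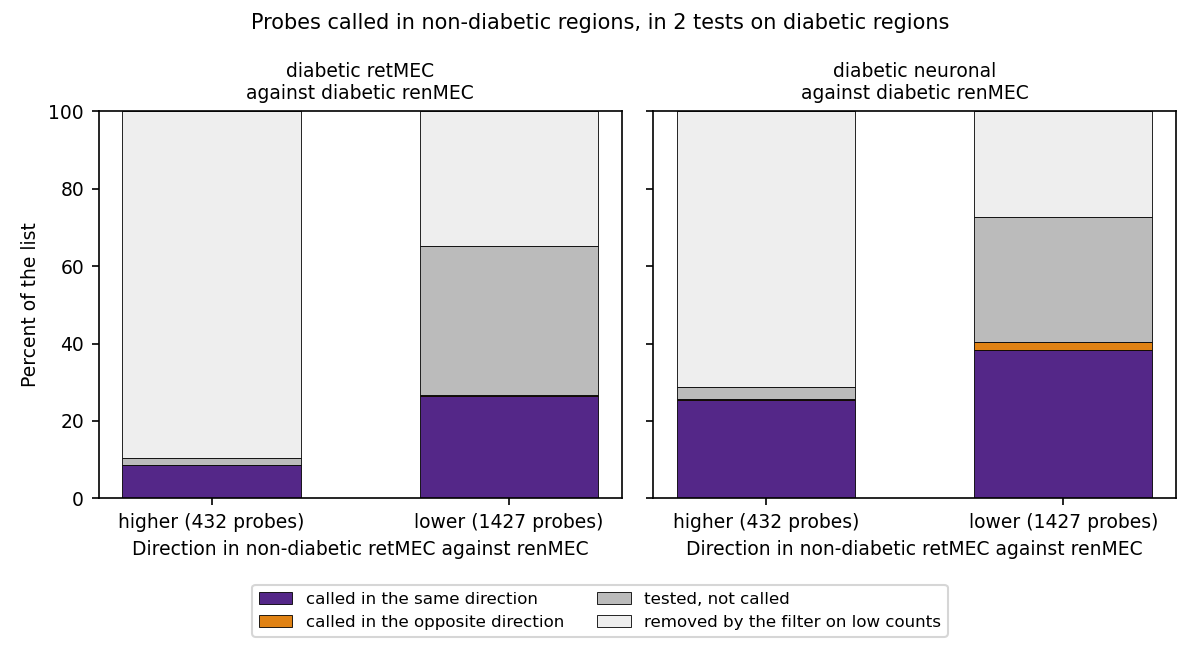
Probes called higher or lower in non-diabetic retMECs against renMECs (x axis), by their outcome in diabetic retMECs against diabetic renMECs (left) and diabetic neuronal regions against diabetic renMECs (right), as a percent of each list (y axis, stacked bars). The part called in the same direction was 8.56% of the higher and 26.4% of the lower list on the left and 25.5% and 38.4% on the right, and the filter on low counts left 45 and 124 of the 432 higher probes.

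The called probes as a sum differed over the other regions of the series as well. The 432 higher probes held 3.00%, 4.86% and 5.68% of counts in retMECs, against 0.813%, 0.86% and 0.802% in renMECs. They held 4.16%, 3.72% and 3.5% in diabetic retMECs, against 1.17%, 1.22% and 1.25% in diabetic renMECs, and 1.96%, 1.87% and 1.88% in non-diabetic carMECs. Their share was largest in the neuronal regions, at 11.95%, 10.4% and 11.7% without and 13.6%, 12.2% and 14.2% with diabetes, which lay above every retMEC region. The ninth probe of the retMEC order, 1 of the 432, alone held 3.19%, 2.59% and 3.37% there without and 3.71%, 2.59% and 4.31% with diabetes. The 1427 lower probes held 7.04%, 8.66% and 8.8% of counts in retMECs, against 36.4%, 34.6% and 38.3% in renMECs. In diabetic mice they held 9.84%, 11.1% and 9.54% in retMECs, against 24.6%, 23.5% and 23.5% in renMECs. They held 14.6%, 16.0% and 17.3% in non-diabetic carMECs and 10.3%, 9.99% and 10.1% in non-diabetic neuronal regions. Of the 1427, 5 had no count on plate 1, and their part of each gap to retMECs cannot be told apart from plate. Among these, RTS0067474 alone held 5.06%, 3.98% and 6.01% of counts in non-diabetic renMECs. Its share was 2.96%, 3.37% and 4.27% in non-diabetic carMECs and 1.44%, 1.09% and 1.33% in non-diabetic neuronal regions. The values of the non-diabetic retMECs and renMECs chose these lists and are a description, whereas those of the other groups did not enter the choice.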

How the data were processed

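The deposited values are counts per probe, 1 list per region. The authors' pipeline, GeoMx NGS Pipeline 2.3.4 per the file headers, aligned reads to probe barcodes and merged those with the same molecular identifier. Quality filters, exclusion of genes and 75th percentile scaling had not been applied to the deposited counts. An unlisted probe was taken as 0. Groups came from the sample labels. Counts were tested with edgeR 4.0.16 in R 4.3.3 (quasi-likelihood, robust, upper-quartile factors at the 75th percentile, filterByExpr at a minimum of 10 counts, Benjamini-Hochberg adjusted p under 0.05, two-sided), and the code was tested on simulated data. Ranks were taken within regions with ties averaged. The named probes are, in each direction, the 2 with the smallest p among called probes of the 500 abundant ones whose scaled counts and ranks did not overlap. The probes, lists and tests were chosen with earlier results of these data known. Replicates of a group differed beyond counting noise. Same-numbered regions were not treated as pairs, because the labels do not tie regions to mice. Their deviations correlated at -0.10, -0.02 and -0.03, which does not settle whether they shared mice. Alternatives used TMM, 90th percentile or total-count factors, DESeq2 1.42.0, limma 3.58.1 on ranks, other filters, thinning, a model of 9 regions, a replicate block and leaving out each region. Leaving out the probes counted on 1 plate only was added after seeing the data. Of the probe IDs, 0 matched a gene in the reference table used here.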

Additional observations from a re-analysis of the deposited data

How the results depend on the processing

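The numbers of higher and lower probes depended on the settings, while RTS0074851 and RTS0075409 stayed higher and called under each setting that tested them. For RTS0067474 and RTS0080786, at 0 on plate 1, no setting could change the direction. Against 432 higher and 1427 lower probes, there were 276 higher with TMM, 2295 and 694 with total counts, 877 higher with the 90th percentile and 257 and 662 with DESeq2. A minimum of 10 counts in each of the 6 regions left 557 probes, 5 of them higher and 44 lower. There were 897 higher in 1 model of the 9 non-diabetic MEC regions, 124 and 312 with limma on ranks, and 8 and 432 of 794 after thinning each region to 71038 counts. The cause of these changes was not tested, and the number of probes tested also differed between some of the settings. With the replicate number as a block, 316 were higher and 983 lower, although the labels do not say whether the numbers pair the regions. Leaving out 1 region at a time gave 280 to 894 higher and 961 to 1518 lower, with 7205 to 17683 probes tested.

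Ranks lay apart, above and below, for 34 and 46 of the 100 most abundant probes, for 174 and 421 of the 1000 most abundant, and for 67 above after thinning. Leaving out 1 region gave 114 to 190 above and 198 to 256 below, although with fewer regions ranks lie apart more easily. Shared calls with diabetic retMECs against renMECs were 142 higher and 213 lower with total counts, and with neuronal regions 242 higher. Leaving out 1 non-diabetic region gave 22 to 56 higher and 336 to 383 lower shared with diabetic retMECs, and 61 to 132 higher and 437 to 571 lower shared with neuronal regions, with the 22 and the 61 found without retMEC region 2. Depth limits the retMEC values, since the 75th percentile of retMEC regions 2 and 3 was 5 and 4 counts.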
